A study of Mus musculus with 7 samples.

Results

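The 8 genes described here encode the chemokines that attract neutrophils through the receptor CXCR2, that receptor, and the granulocyte growth factor axis. They are Cxcl1, Cxcl2, Cxcl3 and Cxcl5, then Cxcr2, then Csf2 and Csf3, and Csf3r. Each was taken as the row of the deposited count table that carries its name, and all 8 were found among the 49164 gene rows with counts. Enough reads for a test were present for 6 of the 8, among 15399 tested genes, while Csf2 and Csf3 were not tested. The RNA came from soft tissue (muscle and soft callus) next to a 1.5-mm hole drilled into the lower jaw bone 5 days earlier. Libraries of polyadenylated RNA were made from 3 IL17KO samples, of Il17af-/- mice that lack Il17a and Il17f, and from 4 WT samples of littermates; both groups had the drill hole. The labels give neither age nor sex, and they do not say whether the samples are different mice; the p-values therefore cover the spread among these libraries, which may be technical. The question is whether neutrophil-attracting signals in the healing tissue differ without interleukins 17A and 17F.

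CXCL1, CXCL2, CXCL3 and CXCL5 are secreted by fibroblasts, endothelial and epithelial cells and macrophages at sites of injury, and in the mouse they act on CXCR2 of neutrophils. Interleukin 17 acts on stromal and epithelial cells, where it both induces the transcription of these chemokine genes and slows the decay of their mRNAs. G-CSF, the product of Csf3, drives the production and release of neutrophils through its receptor CSF3R, and GM-CSF, the product of Csf2, acts on granulocytes and macrophages. Interleukin 17 is known to raise G-CSF as well, and loss of the interleukin 17 receptor in mice lowers neutrophil recruitment.

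The 4 chemokine genes lie in 1 cluster on chromosome 5, in the order Cxcl5, Ppbp, Pf4, Cxcl3, Cxcl15, Cxcl1 and Cxcl2 in the GENCODE annotation. Sequences upstream of Cxcl1, Cxcl2 and Cxcl3 are shown because these 3 neighbours share a binding sequence of NF-kB, a transcription factor through which inflammatory cytokines induce them. The lines give bases -150 to -1 before the RefSeq transcription start, 5′ to 3′ on the plus strand of GRCm38.p6, an older build than the GRCm39 named for the counts. Capitals mark the NF-kB sequence GGGAATTTCC and, nearer to the start, the TATA-like sequence ATAAAAGG. Cxcl1 is from chr5:90891095-90891244, Cxcl2 from chr5:90903749-90903898 and Cxcl3 from chr5:90785951-90786100.
Cxcl1: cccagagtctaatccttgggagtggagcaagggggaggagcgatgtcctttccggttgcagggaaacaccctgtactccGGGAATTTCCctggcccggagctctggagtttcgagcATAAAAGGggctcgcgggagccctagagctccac
Cxcl2: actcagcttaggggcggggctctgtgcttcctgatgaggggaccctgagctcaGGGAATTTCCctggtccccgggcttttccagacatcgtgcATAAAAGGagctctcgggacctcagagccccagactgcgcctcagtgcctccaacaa
Cxcl3: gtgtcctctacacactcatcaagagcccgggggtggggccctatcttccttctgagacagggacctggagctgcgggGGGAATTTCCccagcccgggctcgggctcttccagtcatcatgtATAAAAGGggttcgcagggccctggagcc

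The NF-kB sequence begins at -71 in Cxcl1, -97 in Cxcl2 and -73 in Cxcl3, and the TATA-like sequence at -34, -57 and -29 in the same order. Promoter windows of 300 bases, from 250 before to 50 after the start, were matched for 6 of the 8 genes. No window was available for Cxcl5 or Csf3, so these genes were not searched for any of the sequences. GGGAATTTCC was found, on either strand, in 29 of 32851 such windows in the RefSeq table (0.0883%), and ATAAAAGG in 1.76%. The broader NF-kB consensus, searched on both strands, was present in 4.51% of windows and, among the 6 genes, in the same 3 chemokine genes, where it overlaps itself on the opposite strand. GGGAATTTCC was picked as the consensus match that these 3 genes share, and their windows are among the 29. Its presence in them was thus fixed in advance, and its rarity says nothing about them. The sequence TTGCNNCAA, where N is any base, was found on either strand in Cxcl1 and Csf3r, against 2.08% of windows. Aligned end to end, the printed stretches share 59.6% of aligned positions between Cxcl1 and Cxcl3, 56.4% between Cxcl1 and Cxcl2 and 55.9% between Cxcl2 and Cxcl3. A match is a run of letters, not a site shown to be bound. Among protein-coding transcripts, none of the 8 genes had a copy in another gene at 95% identity or more over 80% of its length. The closest stretch joined Cxcl2 and Cxcl3, at 90.1% identity over 354 bases.

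Total counts ran from 18539904 to 26271176 per library, and a floor of 3 counts is 0.111 to 0.162 CPM (counts per 1000000 counts of library size, with sizes scaled by the TMM method); it covers counting error only. Il17a had 0 counts in all 7 libraries, and Il17f had 1, 1 and 0 counts in IL17KO replicates 1, 2 and 3 and 0 in each WT library, so the counts of these genes do not check the genotype labels. Libraries differed in their muscle content: the summed level of 25 skeletal muscle genes ran from 42051 to 128906 CPM in IL17KO and from 21771 to 68481 CPM in WT. WT replicate 3 had the lowest and IL17KO replicate 3 the highest level, and these libraries lie at opposite extremes of principal component 1 (47.8% of the variance). All 25 muscle genes had positive fold changes (median log2 fold change 0.61) and 0 passed the test, as for Ryr1, the calcium release channel of muscle, at 2251 ± 1435 CPM in IL17KO and 1120 ± 452 CPM in WT (SD, n = 3 and 4). IL17KO replicate 3 carries this direction: without it the muscle median was 0.018 with 12 of 25 genes negative, and Ryr1 had a log2 fold change of 0.35. The muscle median was 0.35 without WT replicate 3 and -0.23 without both. The part of muscle content in the results below was not tested beyond the values given with it as a covariate or without these libraries. In these bulk samples, fewer cells of a type and less RNA per cell cannot be told apart.

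All 6 tested genes had lower mean levels in IL17KO than in WT tissue, by 1.40 to 2.66 times in the ratio of mean CPM. The largest ratios were those of Cxcl3, Cxcl1 and Cxcl5, and the smallest that of Csf3r. By edgeR's quasi-likelihood test with Benjamini-Hochberg adjustment over all tested genes, 0 of the 6 passed an adjusted p of 0.05, where 0.156% of all tested genes did. The other tools called none of them either, where DESeq2 called 0.204% of its genes, limma voom 0.416% and limma-trend 0.175%. At an unadjusted p under 0.05, 3 of the 6 were lower (Cxcl1, Cxcl2 and Cxcl3), where 1.66% of all tested genes were lower; 1.38% were higher. Their median log2 fold change was -1.06, beside 0.0026 for all tested genes, of which 49.4% had a negative fold change. Without WT replicate 3 and IL17KO replicate 3 the 6 were still negative, with a median of -0.52, and without IL17KO replicate 2 the median was -1.58. The genes were chosen with earlier results of these data known, so these counts describe them and do not single them out.

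**Figure D1:**
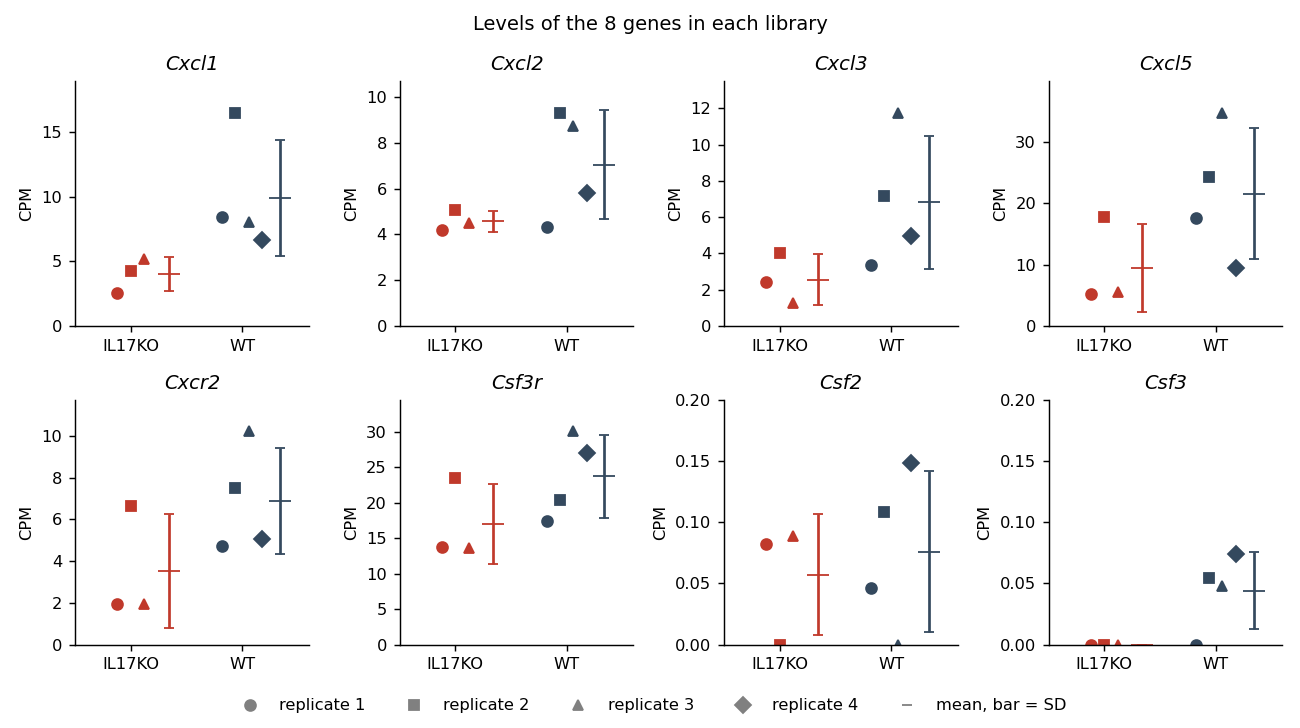
Level of each of the 8 genes in CPM (vertical axes, linear from 0) in the 3 IL17KO libraries and the 4 WT libraries; symbols mark replicates, and the bar beside each group is the mean with its SD. Only for Cxcl1, among the 6 tested genes, do all IL17KO libraries (up to 5.19 CPM) lie below all WT libraries (from 6.64 CPM).

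Cxcl1, the chemokine also called KC, was the one tested gene of the 6 whose groups did not overlap. It had 2.58, 4.27 and 5.19 CPM in IL17KO replicates 1 to 3, against 8.41, 16.5, 8.06 and 6.64 CPM in WT replicates 1 to 4. Every IL17KO library was below every WT library, and WT replicate 2 stood well above the other WT libraries. The means were 4.01 ± 1.33 CPM in IL17KO and 9.90 ± 4.46 CPM in WT (SD, n = 3 and 4), a 2.47-fold lower mean in IL17KO. The edgeR log2 fold change was -1.30 ± 0.36 (SE, unadjusted p = 0.00572, adjusted p = 0.988), and the exact two-sided permutation p over all 35 assignments was 0.0286, the smallest that this design allows. Among all tested genes, 1.94% had every IL17KO library below every WT library. Without WT replicate 2 the log2 fold change was -0.95.

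Cxcl2, or MIP-2, is released by macrophages and neutrophils as well as by stromal cells. Its levels were 4.17, 5.06 and 4.48 CPM in IL17KO replicates 1 to 3, against 4.32, 9.30, 8.73 and 5.82 CPM in WT replicates 1 to 4. The IL17KO libraries lay close together (4.57 ± 0.45 CPM), and WT replicate 1 stood within their range, while WT replicates 2 and 3 were the highest (7.04 ± 2.37 CPM in WT). The log2 fold change was -0.62 ± 0.27 (edgeR p = 0.0472, adjusted p = 0.988), and the exact permutation p was 0.171.

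Cxcl3, the close relative of Cxcl2, had 2.41, 4.04 and 1.24 CPM in IL17KO replicates 1 to 3, against 3.36, 7.19, 11.8 and 4.97 CPM in WT replicates 1 to 4. WT replicate 3 was the highest and IL17KO replicate 3 the lowest, and the groups overlapped at IL17KO replicate 2 and WT replicate 1. The log2 fold change was -1.40 ± 0.50 (edgeR p = 0.021, adjusted p = 0.988), with an exact permutation p of 0.0857. Without both replicate 3 libraries it was -0.67 ± 0.34.

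Cxcl5, also called LIX in the mouse, is made by epithelial cells, fibroblasts and platelets. Its levels were 5.24, 17.7 and 5.50 CPM in IL17KO replicates 1 to 3, against 17.6, 24.3, 34.6 and 9.42 CPM in WT replicates 1 to 4. IL17KO replicate 2 stood above WT replicates 1 and 4, whereas the other IL17KO libraries were below every WT library. The log2 fold change was -1.17 ± 0.54 (edgeR p = 0.059, adjusted p = 0.988), and the exact permutation p was 0.171. Its size depended on single libraries of both groups: without IL17KO replicate 2 the value was -1.997, without IL17KO replicates 1 and 3 in turn -0.89 and -0.91, and without WT replicate 3 -0.85.

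Levels can be set side by side between genes only per length, here as CPM per kb of merged protein-coding exons. In IL17KO the order of the mean levels was Cxcl5 (6.02 ± 4.53 CPM per kb), Csf3r (4.84 ± 1.61), Cxcl1 (4.21 ± 1.39), Cxcl3 (2.52 ± 1.38), Cxcl2 (2.46 ± 0.24) and Cxcr2 (1.16 ± 0.89). In WT it was Cxcl5 (13.6 ± 6.77 CPM per kb), Cxcl1 (10.4 ± 4.67), Csf3r (6.76 ± 1.66), Cxcl3 (6.71 ± 3.59), Cxcl2 (3.79 ± 1.27) and Cxcr2 (2.26 ± 0.84). Neighbours in both orders overlapped between libraries, apart from Cxcl2 and Cxcr2 in IL17KO. Csf2 and Csf3 were below all of these in every library.

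Summed over the 4 ligands, the level per length was 10.65, 22.4 and 12.6 CPM per kb in IL17KO replicates 1 to 3, against 25.6, 44.8, 46.7 and 21.0 in WT replicates 1 to 4. IL17KO replicate 2 was above WT replicate 4, so the groups overlapped. Cxcl5 made up 27.8% to 50.2% of the sum in IL17KO libraries and 28.5% to 47.1% in WT libraries. Cxcl1 made up 19.99% to 43.3% in IL17KO and 18.1% to 38.6% in WT. The share of Cxcl2 was 21.1%, 12.1% and 19.2% in IL17KO replicates 1 to 3, against 9.07%, 11.2%, 10.1% and 14.9% in WT replicates 1 to 4, and these ranges overlapped as well.

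**Figure D2:**
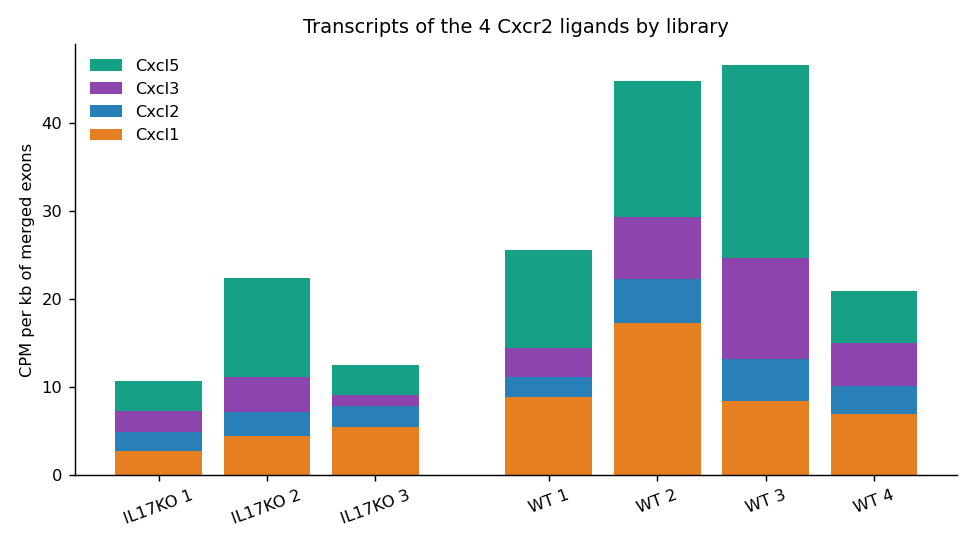
Summed level of Cxcl1, Cxcl2, Cxcl3 and Cxcl5 in each library, in CPM per kb of merged exons (vertical axis from 0), with 1 bar per library, IL17KO on the left, and 1 colour per ligand. The sums run from 10.65 to 22.4 in IL17KO and from 21.0 to 46.7 in WT, and the largest share differs from library to library between Cxcl5 and Cxcl1.

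Cxcr2 encodes the receptor of these ligands, carried mainly by neutrophils. It had 1.96, 6.66 and 1.95 CPM in IL17KO replicates 1 to 3, against 4.74, 7.51, 10.2 and 5.05 CPM in WT replicates 1 to 4. As for Cxcl5, IL17KO replicate 2 lay among the WT libraries while the other IL17KO libraries were below all of them. The log2 fold change was -0.95 ± 0.48 (edgeR p = 0.0801, adjusted p = 0.988; exact permutation p = 0.114). Without IL17KO replicate 2 it was -1.81 (unadjusted p = 0.000867, adjusted p = 0.305), and without WT replicate 3 it was -0.71.

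Csf3r, the G-CSF receptor of neutrophils and their precursors, which monocytes also carry, had 13.8, 23.5 and 13.7 CPM in IL17KO replicates 1 to 3, against 17.4, 20.4, 30.0 and 27.01 CPM in WT replicates 1 to 4. IL17KO replicate 2 again exceeded WT libraries, here replicates 1 and 2. The log2 fold change was -0.48 ± 0.25 (edgeR p = 0.0905, adjusted p = 0.988; exact permutation p = 0.171), and without IL17KO replicate 2 it was -0.79.

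The growth factors themselves were at the detection floor in both groups. Csf3 had 0 counts in each of the 3 IL17KO libraries, against 0, 1, 1 and 2 counts in WT replicates 1 to 4. Csf2 had 2, 0 and 2 counts in IL17KO replicates 1 to 3, against 1, 2, 0 and 4 counts in WT replicates 1 to 4. Both stayed at or below the floor of 3 counts in all libraries except Csf2 in WT replicate 4 (0.148 CPM), so no fold is given and a difference was not detectable at this depth.

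Neutrophil markers and several of the 8 genes ordered the libraries alike. Of 24 fixed markers without Cxcr2 and Csf3r, 14 were tested, 12 had negative fold changes, 0 passed the test and 4 were lower at an unadjusted p under 0.05; the median log2 fold change was -0.62. That median depended on single libraries: it was -1.19 without IL17KO replicate 2, -1.02 without WT replicate 1 and -0.44 without IL17KO replicate 3. Without both replicate 3 libraries it was -0.086, with 8 of 14 negative, and with the muscle level as a covariate -0.27, with 10 of 14 negative. Their summed level was 106.5, 166.9 and 88.3 CPM in IL17KO replicates 1 to 3, against 127.5, 217.0, 398.6 and 138.3 CPM in WT replicates 1 to 4. Much of this sum is Mmp9 and Clec4d. Mmp9 was at 214.9 CPM in WT replicate 3, at 41.5 to 65.0 CPM in the other WT libraries and at 21.1 to 47.0 CPM in IL17KO. Clec4d was at 32.3 to 54.4 CPM in IL17KO and 37.5 to 69.2 CPM in WT. The libraries stood in the same order for Cxcr2 as for the mean log2 level of the 14 tested markers: WT replicates 3 and 2, IL17KO replicate 2, WT replicates 4 and 1, then IL17KO replicates 1 and 3. For Cxcl3 that order differed only in that WT replicate 4 was above IL17KO replicate 2. For Cxcl1 it did not hold, since WT replicate 1 was above WT replicate 3 and IL17KO replicate 2 was below every WT library. For S100a8 and S100a9, the calprotectin subunits, the log2 fold changes were -1.08 ± 0.47 and -1.34 ± 0.54; for Mmp9, a gelatinase of neutrophil granules and macrophages, the value was -1.59 ± 0.61, and -0.77 without WT replicate 3. Stfa2l1, a stefin of mouse neutrophils, was at 0.207 ± 0.109 CPM in IL17KO and 0.823 ± 0.462 CPM in WT. These levels are near the floor of 3 counts. They rest on 2, 7 and 6 counts in IL17KO replicates 1 to 3, against 10, 20, 28 and 11 in WT replicates 1 to 4. Defining markers were near 0: Ly6g and the granule genes Elane, Ctsg and Ngp stayed at 3 counts or fewer in each library, and none of the 24 was at 0 in all. Of other tested markers, Mpo and Prtn3 had log2 fold changes of -0.18 ± 0.44 and 0.09 ± 0.42, and Lcn2 and Mmp8 -0.71 ± 0.63 and -0.53 ± 0.40. These 4 were named after their values were seen. Padi4, which citrullinates histones in neutrophils and was named after its values were seen, had 3.80, 4.08 and 2.26 CPM in IL17KO replicates 1 to 3, against 2.02, 1.24, 3.07 and 2.30 CPM in WT replicates 1 to 4.

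With the mean level of the neutrophil markers as a covariate, the log2 fold changes were -1.19 ± 0.45 for Cxcl1, -0.21 ± 0.23 for Cxcl2, -0.53 ± 0.22 for Cxcl3 and -0.46 ± 0.35 for Cxcl5. For the receptors they were -0.30 ± 0.27 for Cxcr2 and -0.17 ± 0.21 for Csf3r. With the muscle level as a covariate Cxcl1 stood at -1.41 ± 0.41, Cxcl3 at -0.96 ± 0.28, Cxcl5 at -0.74 ± 0.41, Cxcr2 at -0.62 ± 0.31, Cxcl2 at -0.50 ± 0.26 and Csf3r at -0.31 ± 0.20. Beside the main values, Cxcl1 moved little in both fits, while the other 5 were closer to 0; whether Cxcl1 differs from them in this was not tested. None of the 6 passed the adjusted test in either fit. The neutrophil level rests on the 14 tested markers, which include Mmp9, also of macrophages, and not Ly6g, Elane, Ctsg or Ngp. It is thus not a measure of neutrophils alone, and the part of neutrophil content in the results was not tested beyond the values of these fits.

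**Figure D3:**
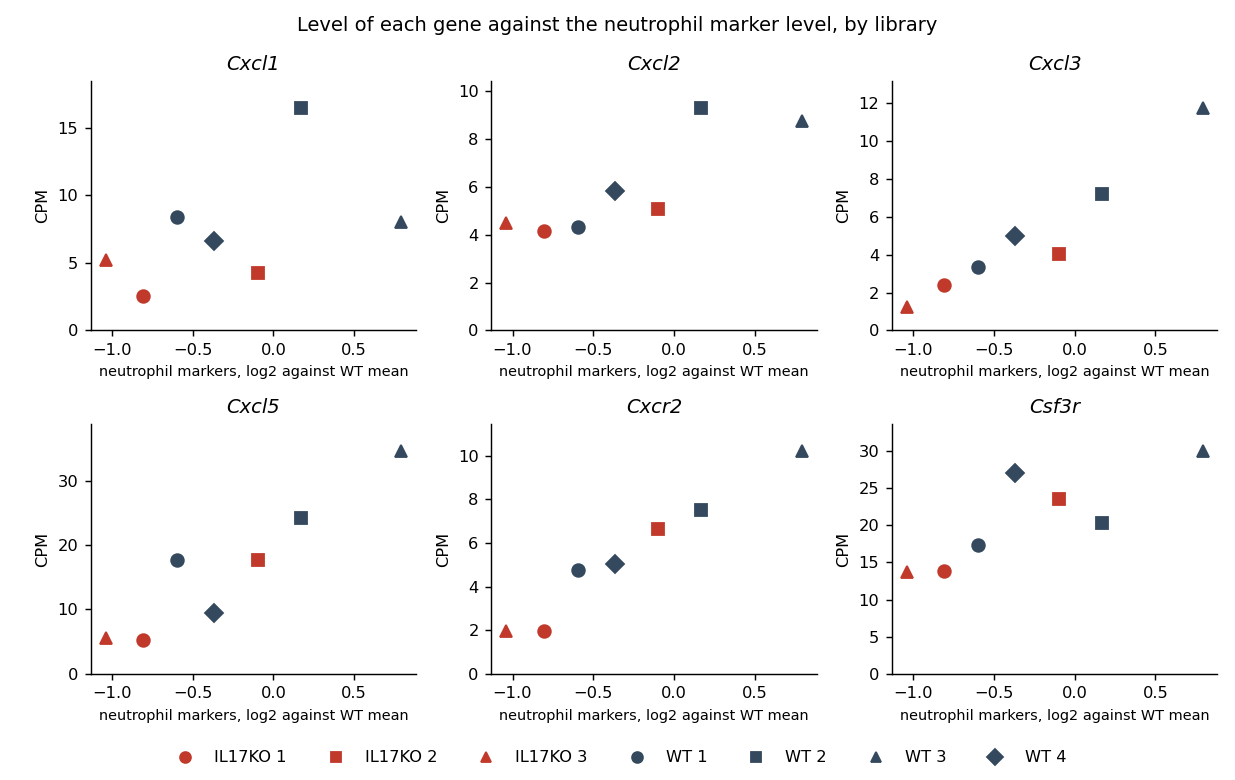
CPM of the 6 tested genes (vertical axes from 0) against the mean log2 level of the tested neutrophil markers relative to the WT mean (horizontal axes), with 1 point per library, red for IL17KO and dark for WT. Cxcr2 follows the order of the markers, from IL17KO replicate 3 at 1.95 CPM to WT replicate 3 at 10.2 CPM, while the highest Cxcl1 level (16.5 CPM) is in WT replicate 2.

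The other genes of the chromosome 5 cluster were platelet chemokines and Cxcl15, a lung chemokine, which had 0 counts in all 7 libraries. Ppbp, a CXCR2 ligand of platelets, had 6.75, 15.5 and 3.11 CPM in IL17KO replicates 1 to 3, against 10.9, 11.9, 33.6 and 18.6 CPM in WT replicates 1 to 4. Its log2 fold change was -1.15 ± 0.56, and that of Pf4, platelet factor 4, was -0.49 ± 0.27. Ppbp was at -1.93 without IL17KO replicate 2, at -0.76 without IL17KO replicate 3 and at -0.73 without WT replicate 3, and Pf4 at -0.25 without WT replicate 3. The receptor gene Cxcr1 had at most 2 counts in any library. Of 18 other CXC ligand and receptor genes 13 were tested, 10 had negative fold changes and 0 passed the test, with a median of -0.24. Of these, 2 were lower at an unadjusted p under 0.05: Cxcl13, a B cell chemokine, at 0.210 ± 0.087 CPM in IL17KO and 0.497 ± 0.175 CPM in WT, and Cxcl16, which binds CXCR6, at 57.7 ± 13.4 and 81.8 ± 15.1 CPM in the same order. Cxcl13 was near the floor of 3 counts, with 4, 4 and 7 counts in IL17KO replicates 1 to 3. It had 6, 11, 14 and 12 counts in WT replicates 1 to 4.

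The list called upstream cytokines had negative fold changes in 10 of 11 tested genes of 16 listed, with a median log2 fold change of -0.66. Its name is a label, and whether its genes act on the chemokines here was not tested. By edgeR 0 passed the test and 6 were lower at an unadjusted p under 0.05. Il1b, which induces Cxcl1 and Cxcl2 in many cells, had 4.13, 8.62 and 3.95 CPM in IL17KO replicates 1 to 3, against 8.28, 21.2, 21.0 and 18.2 CPM in WT replicates 1 to 4. Its log2 fold change was -1.62 ± 0.39 (edgeR adjusted p = 0.693), and DESeq2 called it lower (adjusted p = 0.00939). Il6 had 0.777, 1.10 and 0.799 CPM in IL17KO replicates 1 to 3, against 1.43, 2.38, 1.49 and 1.74 CPM in WT replicates 1 to 4, with no overlap. Il33, an alarmin of stromal cells, and Il1a did not overlap between the groups either, with log2 fold changes of -0.60 ± 0.17 and -1.26 ± 0.43. By limma voom Il33 was called lower (adjusted p = 0.0382), against an edgeR adjusted p of 0.988. Limma voom gave IL17KO replicate 1 (18.2 CPM) a weight of 5.31 and IL17KO replicate 3 (26.36 CPM) a weight of 0.487. The lowest WT library had 26.85 CPM of Il33.

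In the interleukin 17 receptor and mRNA control list, which holds Il17ra, Traf3ip2 (Act1) and the mRNA decay factors Zc3h12a and Zfp36, all 20 genes were tested, 11 had negative fold changes and 0 passed the test, with a median of -0.01. Nfkbiz, which encodes the NF-kB cofactor that interleukin 17 uses to induce its targets, was the one gene there at an unadjusted p under 0.05. It had 10.02, 11.2 and 11.3 CPM in IL17KO replicates 1 to 3, against 15.03, 18.0, 14.2 and 13.4 CPM in WT replicates 1 to 4. The groups did not overlap, and the log2 fold change was -0.48 ± 0.14 (edgeR p = 0.00676, adjusted p = 0.988; exact permutation p = 0.0286). As for Cxcl1, WT replicate 2 was the highest and IL17KO replicate 1 the lowest library. Srsf1, a splicing factor, had a log2 fold change of -0.21 ± 0.13.

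Genes of G-CSF receptor signalling (11 of 14 tested negative, median -0.10) and of other colony-stimulating factors and receptors (7 of 7 tested negative, median -0.08) lay close to 0, and 0 of each passed the test or had an unadjusted p under 0.05. Without both replicate 3 libraries 9 of 14 (median -0.03) and 3 of 7 (median 0.09) were negative, in the same order. Of the first list, Cebpe and Gfi1, named after their values were seen, had too few reads for a test. Cebpe had 2, 2 and 4 counts in IL17KO replicates 1 to 3, against 6, 6, 10 and 6 in WT replicates 1 to 4. Gfi1 had 3, 0 and 1 counts, against 1, 0, 3 and 3. Csf2rb2, the beta subunit of the mouse interleukin 3 receptor, had -0.26 ± 0.17, and Csf1r, the macrophage growth factor receptor, -0.19 ± 0.15. Stat5b had 0.45 ± 0.28, against 0.015 without IL17KO replicate 3 and -0.081 without both replicate 3 libraries. Genes of neutrophil adhesion and other attractants were negative in 15 of 20 tested (median -0.21), again with 0 past either threshold. This direction rested on the replicate 3 libraries: 10 of 20 were negative without that of IL17KO (median -0.025), 11 of 20 without that of WT (median -0.09) and 8 of 20 without both (median 0.11). Among them the formyl peptide receptor gene Fpr1 had -0.89 ± 0.48 (-0.42 without WT replicate 3), E-selectin (Sele) -0.43 ± 0.25, Icam1 -0.34 ± 0.18 and Alox5, the leukotriene-forming lipoxygenase, 0.43 ± 0.21.

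Among the cell types that can make the ligands, fibroblast and endothelial markers each had 5 of 10 tested genes with negative fold changes (medians -0.0002 and -0.012). Epithelial markers had 2 of 5 tested genes negative, of 10 listed (median 0.01). In all of these lists 0 genes were past either threshold. Krt5, Krt14 and Epcam, named after their values were seen, had too few reads for a test. Krt5 had 0, 0 and 2 counts in IL17KO replicates 1 to 3, against 0, 6, 9 and 0 in WT replicates 1 to 4. In the same order, Krt14 had 0, 0 and 0 against 0, 7, 8 and 1 counts, and Epcam 2, 3 and 8 against 2, 4, 9 and 5. T cell markers had 2 of 6 tested genes negative, of 11 listed (median 0.16), also with 0 past either threshold. Macrophage markers were negative in 8 of 12 (median -0.15), with 0 past the adjusted test and Cd163, a scavenger receptor of resident macrophages, higher at an unadjusted p under 0.05 (log2 fold change 0.92 ± 0.22). Mertk, a phagocytic receptor of macrophages, was at 49.2 ± 2.40 CPM in IL17KO and 42.8 ± 1.28 CPM in WT. Directions of these lists changed without WT replicate 3 and IL17KO replicate 3. Macrophage markers were then negative in 3 of 12 (median 0.063), epithelial markers in 5 of 5 (-0.22) and T cell markers in 5 of 6 (-0.11). Fibroblast and endothelial markers were then negative in 4 and 3 of 10 (medians 0.25 and 0.059).

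**Figure D4:**
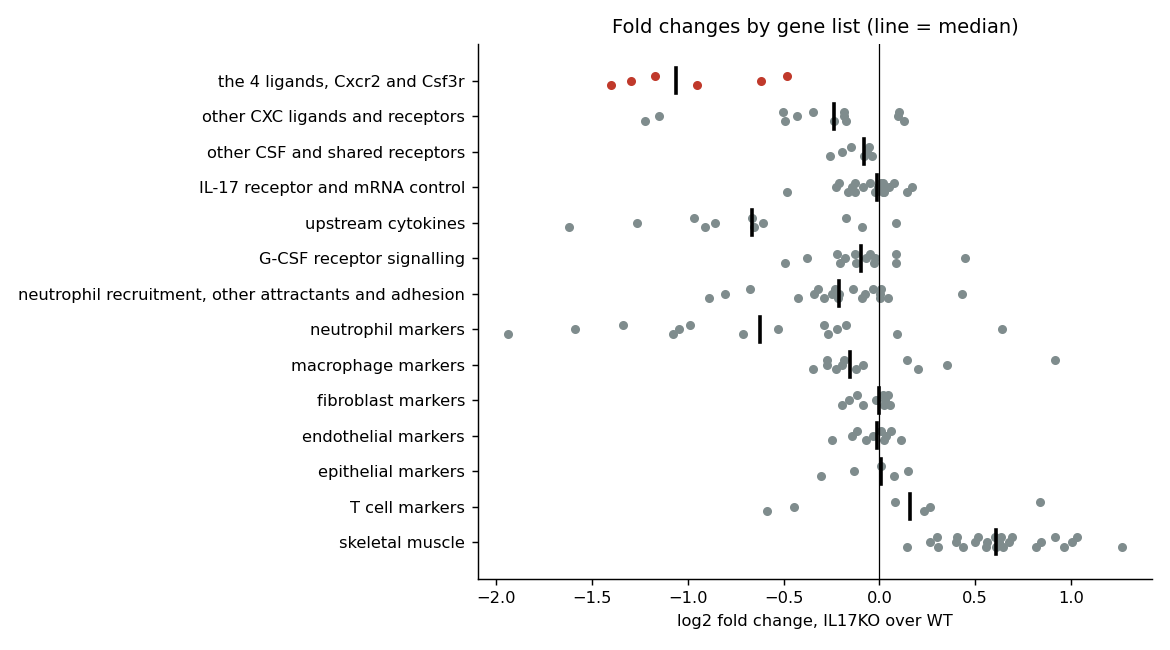
Log2 fold change, IL17KO over WT, of every tested gene (horizontal axis, 1 point per gene) by list, with the 4 ligands, Cxcr2 and Csf3r in red at the top; the black line is the median of each list. The medians are -1.06 for these 6 genes, -0.66 for upstream cytokines, -0.62 for neutrophil markers and 0.61 for skeletal muscle genes; without WT replicate 3 and IL17KO replicate 3 they are -0.52, -0.60, -0.086 and -0.23 in the same order.

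The genes most like each tested gene were sought among 12840 named genes by Pearson's r of log2 CPM over the 7 libraries, a description for which no test is given because they were picked for it. For Cxcl1 they were Clec4a3, a myeloid C-type lectin, Nfkbiz and Psph, a serine synthesis enzyme (r = 0.98, 0.98 and 0.96). For Cxcl2 they were Clec4a2, another such lectin, Ptpn22, a phosphatase of immune cells, and the adenosine receptor gene Adora2b (r = 0.98, 0.98 and 0.97). For Cxcl3 they were Itprip, AI504432 and the kinase gene Mark1 (r = 0.99 each), and for Cxcl5 they were the MAX-binding repressor gene Mxd1, the adaptor gene Dapp1 and Atad3a (r = 0.98 each). The closest to Cxcr2 was Mcemp1, a mast cell and myeloid membrane protein (r = 0.996), before Tmem151b and Ass1, which makes argininosuccinate (r = 0.99 each). For Csf3r they were Zbp1, a nucleic acid sensor, Frmd6 and Dusp9 (r = 0.99 each). These values share libraries, depth and muscle content.

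All 6 fold changes were negative under every alternative tried, in 102 of 102 refits, and 0 of the 6 genes passed the adjusted test in any of 18 alternatives. Cxcl1 ranged from -1.70 (limma voom, adjusted p = 0.0615) to -0.95 (without WT replicate 2), and its unadjusted edgeR p was 0.00403 to 0.0228 with 1 library left out. Limma voom gave IL17KO replicate 1 a quality weight of 5.31, against 0.624 and 0.487 for replicates 2 and 3, so its IL17KO values rest largely on 1 library. Cxcr2 had the smallest adjusted p after Cxcl1, 0.0784 (edgeR), without IL17KO replicate 2 and WT replicate 3, a pair chosen after seeing the data. These libraries had the highest Cxcr2 level of their groups (6.66 and 10.2 CPM) and the lowest muscle level. Without them the muscle median was still 0.62, with 0 of 25 genes negative.

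**Figure D5:**
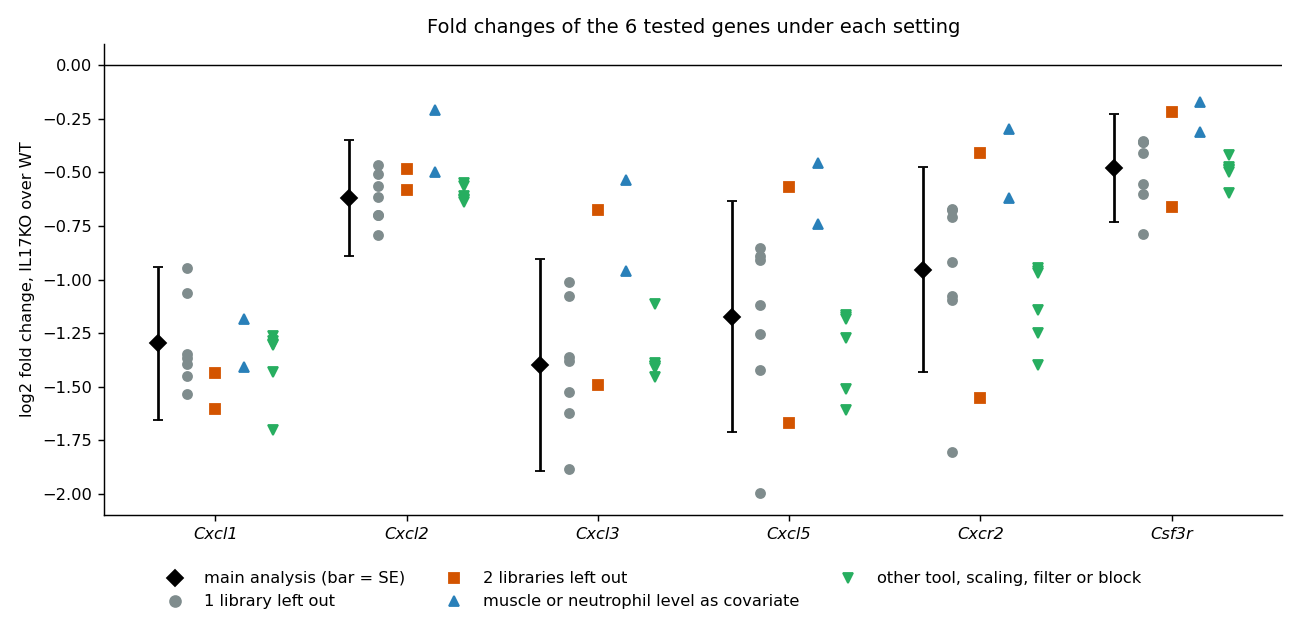
Log2 fold change, IL17KO over WT, of the 6 tested genes (vertical axis) in the main analysis with its SE and under each alternative, grouped by symbol. All points lie below 0; those of Cxcl1 run from -1.70 to -0.95 and those of Cxcr2 from -1.81 to -0.30.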

How the data were processed

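The authors deposited 1 table of raw counts per gene and of a normalized count signal, obtained from the counts with a size factor for each library. Per the submitters' processing notes, bcl2fastq, FastQC, cutadapt, TopHat, HTSeq and DESeq2 were used with build GRCm39; their versions, not given in the sources used here, are unknown. The kit was stranded, per the labels. Columns were matched to samples through the library names in the labels; the names WT3 and WT4 are also titles of other WT samples, which bears on replicate numbers only. A further 6250 of 55414 gene rows are blank and were not analysed here.

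The members and gene lists were chosen with earlier results of these data known. Counts were tested with edgeR 4.0.16 (R 4.3.3; quasi-likelihood, TMM, filterByExpr, robust, two-sided) over 15399 genes, with a Benjamini-Hochberg adjusted p under 0.05 as the threshold; procedures were tested on simulated data. SE is the log2 fold change over the square root of F. CPM uses TMM-scaled library sizes. Exact permutation tests used all 35 splits. Lengths, gene order and transcripts came from GENCODE M21 (GRCm38), promoters from RefSeq (GRCm38.p6), transcript matches from BLAST 2.17.0 and promoter alignments from Biopython 1.88. Alternatives were DESeq2 1.42.0, limma 3.58.1 (voom with quality weights, and limma-trend, for which the deposited normalized signal plus 1 was taken to log2), RLE scaling, no filter, an adjusted p under 0.10, a replicate block, the muscle level as a covariate and each library left out. The neutrophil covariate and leaving out 2 pairs of libraries were chosen after seeing the data. Library pairs within a group had chi-square values averaging 23.1 to 239 per gene, far above sampling noise. Named were the 8 members, Il17a and Il17f, from each other list up to 4 genes with the smallest p, and the 3 genes most like each tested member with a mean log2 CPM of at least 0; 1 such gene is not reported here, and a gene outside this rule is said to be so or stands as a list entry.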

Additional observations from a re-analysis of the deposited data

Results flagged for a closer look

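In WT replicate 3, Il1a was at 1.535 CPM, against 0.736 to 0.816 CPM in the other WT libraries, and Mmp9 at 214.9 CPM, against 41.5 to 65.0 CPM in them; in both cases 1 sample stood far from the other samples of its group. Groups of 4 were examined for 31 genes, and chance alone flags about 1 in 20 groups. The same library had the highest WT levels of Cxcl3, Cxcl5, Cxcr2 and Csf3r and the lowest muscle level.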

How the results depend on the processing

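The number of genes called over the whole table was 24 in the main analysis. It was 64 for limma voom, 58 for DESeq2, 42 when no filter was applied, 2 under the replicate block and 8 to 30 with 1 or 2 libraries left out; none of the 6 tested members was among them in any setting. Under the replicate block the members' log2 fold changes were -1.43 (Cxcl1), -0.64 (Cxcl2), -1.45 (Cxcl3), -1.61 (Cxcl5), -1.25 (Cxcr2) and -0.42 (Csf3r). Same-numbered libraries share only a number: the correlations of their deviations from the group means were 0.12, -0.29 and -0.54. Of the further genes named, Il1b was called lower by DESeq2 (-1.63), Il33 lower and Cd163 higher by limma voom (-0.71 and 1.07), and Stat5b turned to -0.081 without WT replicate 3 and IL17KO replicate 3, with values up to 0.69 with other libraries left out; the cause was not tested. With 1 library left out the members ranged from -1.53 to -0.95 for Cxcl1, -0.79 to -0.47 for Cxcl2, -1.89 to -1.01 for Cxcl3, -1.997 to -0.85 for Cxcl5, -1.81 to -0.67 for Cxcr2 and -0.79 to -0.36 for Csf3r. At this depth a difference in Csf2 or Csf3 was not detectable.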
